A study of Mus musculus with 48 samples.

Results

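The genes described here encode the respiratory chain of the inner mitochondrial membrane and the ATP synthase that it drives. They were chosen by symbol, as the Nduf, Uqcr, Sdh, Cox and Atp5 families of the nucleus and the mt-Nd, mt-Co, mt-Cytb and mt-Atp genes of the mitochondrial genome. Of 117 matching symbols, 7 carried a pseudogene suffix and 14 had fewer than 100 counts over all 48 libraries. That left 96 genes of 47643 gene identifiers, 88 of them nuclear and 8 mitochondrially encoded. The nuclear genes were 36 subunits and 8 assembly factors of complex I, 4 subunits of complex II, 8 of complex III, 14 of complex IV and 16 of ATP synthase (complex V), the ATP synthase coupling factor Atp5s and the supercomplex factor Cox7a2l. The mitochondrially encoded genes were 6 subunits of complex I, cytochrome b (mt-Cytb) of complex III and the catalytic subunit mt-Co1 of complex IV.

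RNA was measured in organoids, small epithelial structures grown in a gel, from the submandibular salivary glands of C57BL/6 mice, 8 to 12 weeks old. They grew in Matrigel in a shared medium with EGF, FGF2, N2, insulin, Wnt3a- and R-spondin1-conditioned media, dexamethasone and the kinase inhibitor Y27632, which the controls received too. On culture day 5 they received 4, 7 or 15 Gy of photons, or 4, 7 or 15 Gy of protons in the plateau of the beam, or no radiation, and they were collected 2 or 6 days later. Each of the 16 groups held 3 libraries, numbered by mouse. The 2 radiation types were delivered on separate days and every type and time had its own unirradiated control, so radiation type and irradiation day cannot be told apart, and levels are compared within a type. The labels leave unsaid whether both types used the same 3 mice. The libraries were QuantSeq 3' libraries, in which a count stands for the 3' end of a polyadenylated transcript.

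The respiratory chain passes electrons from NADH (complex I) and succinate (complex II) through complexes III and IV to oxygen, and the proton gradient this builds drives ATP synthase. Most subunits are nuclear genes whose proteins are imported, while a small core of complexes I, III, IV and V is encoded by mitochondrial DNA, so that a working complex needs both genomes. Several complex IV subunits exist as isoforms: Cox6b2 is the testis form of Cox6b1, Cox4i2 the lung and hypoxia form of Cox4i1, and Ndufa4l2 a relative of the complex IV subunit Ndufa4 that the hypoxia factor HIF-1 induces and that is known to restrain respiration. Salivary duct and acinar cells use much ATP for ion transport and secretion.

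Libraries held 314409 to 4745719 counts (median 2952939). Levels are counts scaled to library size (CPM). CPM of the respiratory chain genes were also normalised by the TMM method within a radiation type, and those of cell type markers were not. The epithelial markers Epcam, at 411 to 809 CPM, and Krt7, at 784 to 2443 CPM, and the basal duct keratins Krt5 and Krt14 were abundant in all 48 libraries. Of 5 acinar markers Bhlha15 had 15 counts in all and Dcpp1 5, Amy1 had 232, Aqp5 758 and Pip 806, the last reaching 43.6 CPM in 1 library. The myoepithelial marker Acta2 had 687 counts, with a median of 4.26 CPM, Cnn1 had 28 and Myh11 24. Of endothelial markers Cdh5 was at 0, Pecam1 had 30 counts and Kdr 68. Fibroblast markers had 82 counts (Col1a1), 47 (Dcn), 39 (Pdgfra) and 3 (Col1a2). In skeletal muscle markers Ckm was at 0, Myh4 had 25 counts and Acta1 330. Among immune markers Cd3e (T cells) was at 0, Cd79a had 2 counts, Ptprc (leukocytes) 7 and the macrophage marker Cd68 480. For brown fat, Ucp1 was at 0 and Cidea had 985 counts. The mitochondrially encoded genes together took 0.565 to 1.41% of counts in the photon series and 1.49 to 3.43% in the proton series, and the nuclear genes 0.811 to 1.29% and 0.831 to 1.07%. These are bulk samples, in which fewer cells of a type and less RNA per cell cannot be told apart.

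Some of the chain was outside what these libraries could measure. mt-Atp8 and mt-Nd4l had no count in any library, mt-Co2 had 1, mt-Co3 had 3 and mt-Atp6 had 5. mt-Nd3, with 110 counts, and the muscle isoform Cox7a1, with 124, were kept as members but were too low for any test. The muscle isoforms Cox6a2 (8 counts) and Cox8b (0), the testis isoforms Cox7b2 (0) and Cox8c (0) and the hypoxia isoform Cox4i2 (1 count) fell below the 100 counts. Statements on mitochondrially encoded genes therefore rest on 5 complex I genes, mt-Cytb and mt-Co1.

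A few libraries stood apart from the other 2 of their group. The deviation of each nuclear gene from the mean of the other 2 libraries was taken on the log2(CPM + 1) scale over 78 nuclear genes with a mean of at least 10 CPM. Its median size was 0.136 over the 48 libraries, and it was 0.698 in mouse 3 of 4 Gy photons at day 6, the library with the lowest total count. It was 0.46 in mouse 3 of the photon day 2 control and 0.387 in mouse 2 of 7 Gy protons at day 2. In 15 Gy protons at day 6 it was 0.303 in mouse 3 and 0.269 in mouse 1. Counts of calls and the ratio of the 2 genomes are given with and without these libraries where they change. The measure is also raised in a library whose partner stands apart. It was 0.398 and 0.36 in mice 1 and 2 of 4 Gy photons at day 6. In mouse 1 of the photon day 2 control it was 0.29.

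Each dose was compared with the control of its type and day by edgeR's quasi-likelihood test over all genes that passed its expression filter, with Benjamini-Hochberg adjusted p-values and a threshold of 0.05. Log2 fold changes are irradiated over control and are given with their standard error (SE). A gene past the threshold is described as called. At the lower doses and after photons few respiratory chain genes were called. After 4 Gy, edgeR called none of 94 at photon day 2 (all genes tested 0.661%), none of 93 at photon day 6 (1.23%) and none of 93 at proton day 2 (1.05%), and DESeq2 also called none in these 3 comparisons. At an unadjusted p under 0.05 there were 6 nuclear and 1 mitochondrially encoded genes at photon day 2, 1 and 1 at photon day 6, and 5 and 1 at proton day 2. At proton day 6, 4 Gy gave 1 called gene, Ndufa4l2, of 92 (1.56%).

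After 7 Gy, 1 gene was called at photon day 2 (all genes 2.7%), 1 at photon day 6 (2.59%), 1 at proton day 2 (2.94%) and 5 at proton day 6 (12.1%). After 15 Gy, 1 was called at photon day 2 (4.96%), 1 at photon day 6 (5.29%), 4 of 93 at proton day 2 (8.31%) and 11 of 92 at proton day 6 (24.2%). The 11 genes were 12% of those tested, a lower share than among all genes. The share of respiratory chain genes called was also below that of all genes in each of the other 11 dose comparisons. Most of those shares rested on 0 or 1 calls, and doses of a type and day shared their control. No result about the chain is drawn from them. The median log2 fold change of the nuclear genes at 15 Gy was 0.02 and 0.03 after photons at days 2 and 6, and 0.05 and -0.05 after protons, against -0.03, 0.00, 0.00 and -0.02 over all genes tested. That of the mitochondrially encoded genes was 0.11 and -0.05 after photons and 0.29 and -0.24 after protons.

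These small numbers of calls came with intervals that lay within 1 of zero for most nuclear genes at 15 Gy, and within 0.5 for fewer. At photon day 6, the 95% interval of the 15 Gy log2 fold change lay within 1 of zero for 81 of the 86 nuclear genes tested and within 0.5 for 50 of them. At proton day 6 it lay within 1 for 71 of 85 and within 0.5 for 36. For the 7 mitochondrially encoded genes tested, it lay within 1 for 7 at photon day 6 and 6 at proton day 6. It lay within 0.5 for only 1 of these 7 in each of those comparisons. One core subunit was followed per complex: Ndufs1, an iron-sulfur subunit of complex I, Sdhb of complex II, Uqcrc1, a core protein of complex III, Cox4i1 of complex IV and Atp5b, the catalytic beta subunit of ATP synthase. Their log2 fold changes over the 12 dose comparisons stayed between -0.29 and 0.36, and none was called in any of the 22 comparisons. Sdhb, for example, had 96.3, 110 and 102 CPM after 15 Gy photons at day 6, against 107, 86.6 and 108 CPM in controls.

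**Figure D1:**
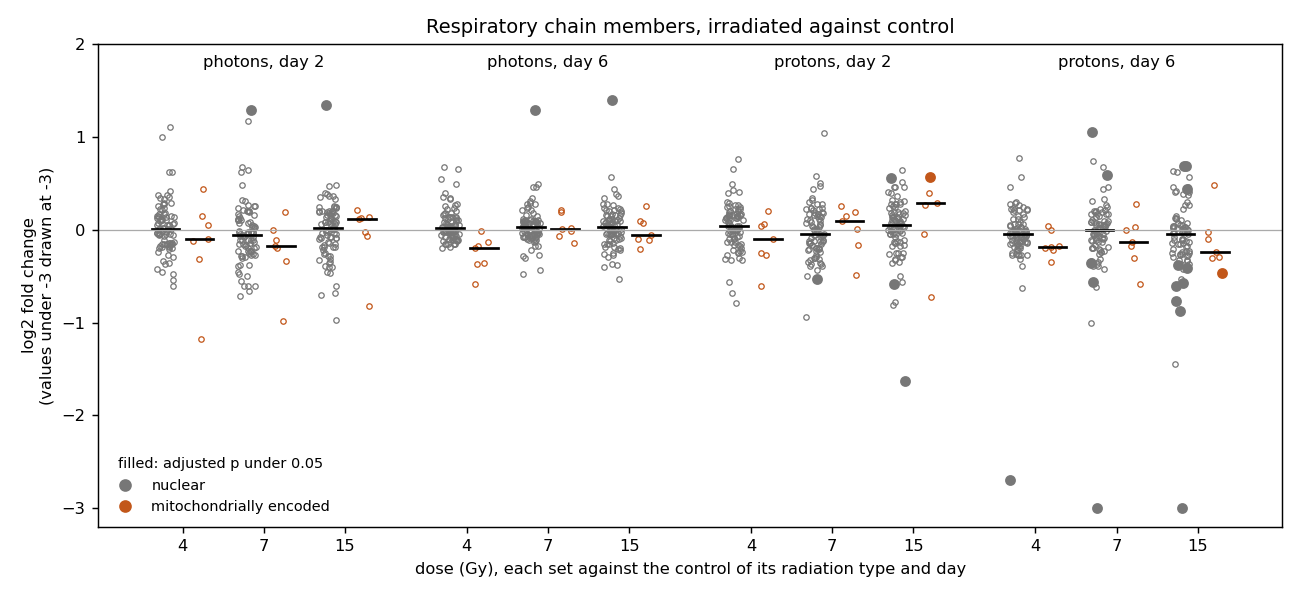
Log2 fold change, irradiated over control (y axis), of each nuclear (grey) and mitochondrially encoded (orange) respiratory chain gene tested, by dose in Gy, type and day; filled points are called, bars are medians and values under -3 are drawn at -3. Most points lie between -1 and 1, and the 3 lowest filled points are Ndufa4l2 in protons at day 6, at -2.70, -4.01 and -5.76.

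The gene called most often was Ndufa4l2, the hypoxia-induced relative of Ndufa4, which was called lower after protons. At proton day 6 it had 10.3, 5.71 and 7.61 CPM in controls, 1.18, 0.681 and 1.53 after 4 Gy, 0.336, 0 and 0.904 after 7 Gy and 0.292, 0 and 0 after 15 Gy. Every irradiated library lay below every control library. The log2 fold changes were -2.70 ± 0.49 after 4 Gy (SE; adjusted p 0.0042), -4.01 ± 0.57 after 7 Gy (0.000137) and -5.76 ± 0.75 after 15 Gy (3.2e-05). The 15 Gy libraries held 1 count in all, against 46 in the controls, so this fitted value depends on the prior count. Scaled to total counts, the ratio of 15 Gy over control counts was 0.0133, with a 95% counting interval of 0.00033 to 0.078, and after 4 Gy it was 0.149 (0.0719 to 0.286).

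At proton day 2 Ndufa4l2 stood higher in all groups and fell less. It had 36.4, 19.1 and 30.3 CPM in controls, 25.2, 11.4 and 17.1 after 4 Gy, 17.7, 20.4 and 8.76 after 7 Gy and 12.1, 10.3 and 5.09 after 15 Gy. The 15 Gy libraries lay below the controls, with a log2 fold change of -1.63 ± 0.35 (SE; adjusted p 0.0065), while the 4 and 7 Gy differences were not called (-0.68, adjusted p 0.43, and -0.94 ± 0.35, 0.188). The slope over dose was called on both proton days, -0.11 per Gy at day 2 and -0.53 per Gy at day 6. Each proton dose and trend call of Ndufa4l2 stood with any 1 of the 12 libraries left out.

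After photons Ndufa4l2 was not called at any dose at day 2, and it was not tested at day 6. At day 2 the 15 Gy libraries had 4.08, 3.81 and 5.82 CPM, against 8.89, 10.2 and 7.86 in controls, a log2 fold change of -0.97 ± 0.45 (SE; adjusted p 0.24). Each of these 15 Gy libraries lay below every control. The scaled count ratio was 0.501 (95% counting interval 0.333 to 0.744) after 15 Gy, 0.645 (0.454 to 0.914) after 7 Gy and 0.992 (0.726 to 1.36) after 4 Gy. At day 6 Ndufa4l2 was too low to test, with 4 counts over the 15 Gy libraries and 26 over the controls, of which 18 were in mouse 3. The scaled ratio was 0.139 (95% counting interval 0.0353 to 0.401) after 15 Gy. It was 0.141 (0.0357 to 0.406) after 7 Gy and 0.132 (0.0257 to 0.432) after 4 Gy. The difference between the proton and photon effects of 15 Gy at day 6 was -3.03 ± 1.61 (log2, SE) and was not called (adjusted p 0.277). In the GENCODE M21 annotation of GRCm38, Ndufa4l2 overlaps the 3' end of Shmt2, a mitochondrial enzyme of serine metabolism on the opposite strand, by 32 bases, and the strand setting of the counting is not given in the sources used here. Shmt2 also fell after protons at day 6, by a log2 change of -1.01 ± 0.16 after 7 Gy (0.000337) and -1.69 ± 0.17 after 15 Gy (1.4e-06), and its part in the result was not tested.

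**Figure D2:**
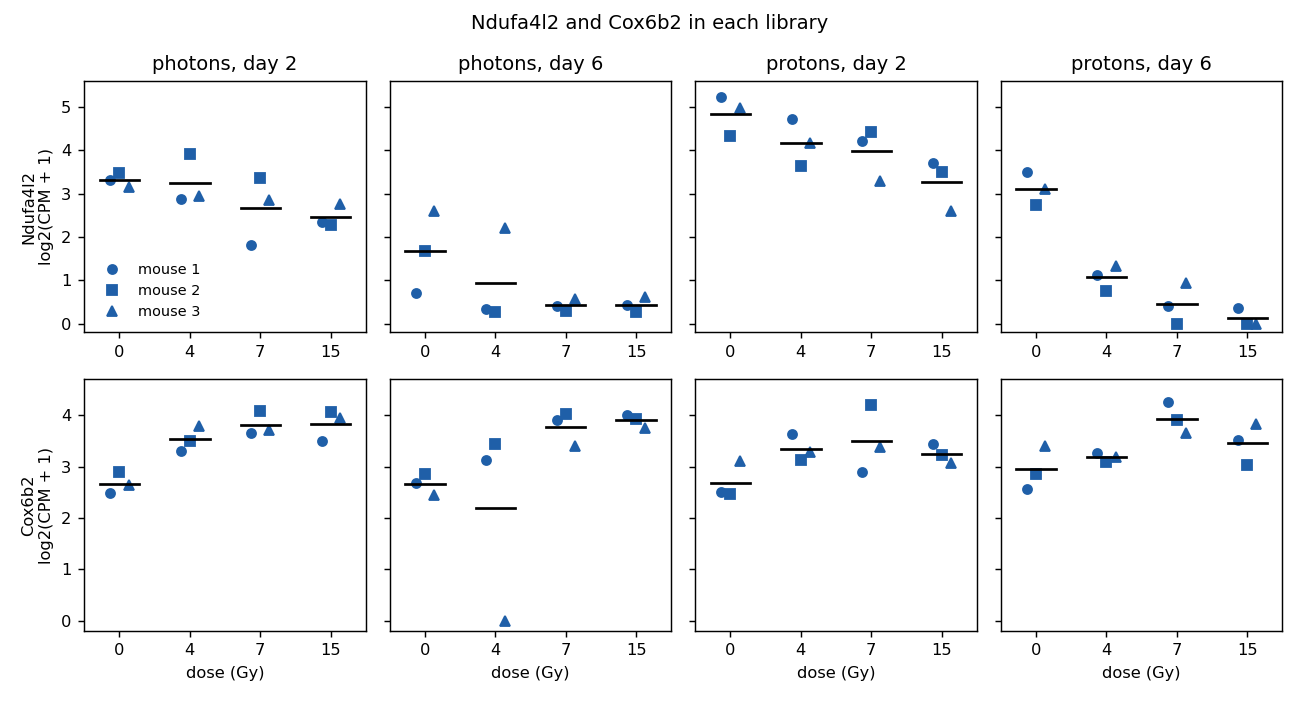
Levels of Ndufa4l2 (top) and Cox6b2 (bottom) as log2(CPM + 1) in each library by dose in Gy, in 4 panels by type and day; symbols are mice and bars are group means. Ndufa4l2 is lowest in the 15 Gy proton libraries at day 6, at 0.292, 0 and 0 CPM, and Cox6b2 lies above the controls in all 3 libraries of 7 and of 15 Gy photons on both days, where 1 library of 4 Gy photons at day 6 is at 0.

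Cox6b2, the testis form of the complex IV subunit VIb, rose after 7 and 15 Gy of photons on both days and after 7 Gy of protons at day 6. At photon day 2 it had 4.59, 6.41 and 5.24 CPM in controls, 8.94, 10.3 and 12.8 after 4 Gy, 11.6, 15.9 and 12.1 after 7 Gy and 10.4, 15.8 and 14.4 after 15 Gy. All 9 irradiated libraries lay above all 3 controls. The log2 fold changes were 1.00 ± 0.27 after 4 Gy (SE; adjusted p 0.173, not called), 1.29 ± 0.26 after 7 Gy (0.0166) and 1.34 ± 0.27 after 15 Gy (0.0091). Cox6b2 was the gene called at 7 and 15 Gy in the photon series on both days.

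At photon day 6 Cox6b2 had 5.38, 6.22 and 4.48 CPM in controls, 7.71, 9.89 and 0 after 4 Gy, 14.1, 15.2 and 9.63 after 7 Gy and 15.2, 14.3 and 12.5 after 15 Gy. The library at 0 was the one with 314409 counts. The 7 Gy log2 fold change was 1.29 ± 0.28 (SE; adjusted p 0.0217) and the 15 Gy one 1.40 ± 0.28 (0.0077), and the slope over dose was 0.08 per Gy (0.0387), called in 6 of the 12 fits with a library left out and not with library size alone (0.0513). The 15 Gy calls stood on both days with any 1 library left out, whereas the day 2 call at 7 Gy was lost without mouse 2 of 7 Gy (0.0807). The day 6 call at 7 Gy was lost without mouse 1 or 3 of the controls or mouse 1 or 2 of 7 Gy. With only the 2 groups compared in the fit, the day 2 adjusted p was 0.0763 at 7 Gy and 0.0605 at 15 Gy.

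After protons Cox6b2 was positive at every dose and called once. At day 6 it had 18.1, 14 and 11.5 CPM after 7 Gy, against 4.92, 6.28 and 9.64 in controls, a log2 fold change of 1.05 ± 0.31 (SE; adjusted p 0.0327). That call was lost without mouse 1 or 2 of either group (adjusted p 0.071 to 0.12). After 15 Gy it had 10.5, 7.15 and 13.2 CPM, which overlapped the controls (0.56, adjusted p 0.218), and at day 2 the 15 Gy log2 fold change was 0.64 (0.30). The proton effect of 15 Gy minus the photon effect was -0.69 at day 2 and -0.78 ± 0.44 at day 6 (SE; adjusted p 0.31), not called on either day. The ubiquitous form Cox6b1, chosen after its values were seen, was never called, with 62.2 to 256 CPM over all libraries.

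The promoter of Cox6b2 and that of Cox6b1 are shown because Cox6b2 was called in 5 of the 12 dose comparisons and Cox6b1 in none; the difference between the 2 genes was not tested. The windows run from 250 bases before to 50 after the start of each gene, from RefSeq on GRCm38.p6, 5′ to 3′ on the minus strand. Cox6b2 lies at chr7:4753045-4753344 and Cox6b1 at chr7:30626065-30626364. Capitals mark the CCAAT box and the ETS site CCGGAAG, each read on both strands.
Cox6b2: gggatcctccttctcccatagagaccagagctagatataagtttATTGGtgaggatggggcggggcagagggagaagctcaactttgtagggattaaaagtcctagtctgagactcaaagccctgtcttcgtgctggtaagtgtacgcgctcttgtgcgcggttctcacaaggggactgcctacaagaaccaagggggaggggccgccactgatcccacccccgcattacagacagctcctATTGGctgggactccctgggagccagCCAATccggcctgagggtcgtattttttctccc
Cox6b1: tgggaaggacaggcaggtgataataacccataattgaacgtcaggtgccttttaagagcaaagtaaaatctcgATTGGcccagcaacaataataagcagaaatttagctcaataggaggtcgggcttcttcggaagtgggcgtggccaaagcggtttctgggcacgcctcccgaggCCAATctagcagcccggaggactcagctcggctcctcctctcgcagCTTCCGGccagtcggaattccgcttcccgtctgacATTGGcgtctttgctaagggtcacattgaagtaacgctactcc
The Cox6b2 window held 3 CCAAT boxes and no ETS site, and the Cox6b1 window 3 CCAAT boxes and 1 ETS site.

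Among the 72 nuclear genes with a promoter window, of 88, the NRF1 site was found in 19 (26.4%), against 5.19% of all 27025 genes with a window. A gene was counted where any of its windows held the site. The ETS site was found in 18 (25%), against 9.93%, the YY1 site AANATGGCG in 11 (15.3%), against 2.76%, and the CCAAT box in 32 (44.4%), against 41.1%. The NRF1 site was read as GCGCA and GCGC with any base between them. Both strands were searched and matches of different motifs could overlap. NRF1 is a transcription factor known to regulate many respiratory chain genes. A match is a description of letters in the window and shows no binding.

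At proton day 6, complex by complex, the members called after 15 Gy were 3 higher (all genes 11%) and 8 lower (13.2%). In complex I, 3 of 36 nuclear subunits were called, all higher, and none of the 8 assembly factors. Ndufa13, an accessory subunit also known as GRIM-19, had 131, 111 and 176 CPM after 15 Gy, against 95.5, 83.9 and 81.2 CPM in controls, a log2 fold change of 0.68 ± 0.16 (SE; adjusted p 0.0048). Ndufa5, an accessory subunit of the peripheral arm, had 77, 123 and 133 CPM, against 74.3, 61.7 and 69 CPM (0.69 ± 0.17; 0.0065). Ndufs4, an accessory subunit of the electron input module whose loss causes Leigh-like disease in mice, had 79.6, 81.4 and 88.7 CPM, against 58.1, 65.7 and 59.9 CPM (0.44 ± 0.12; 0.015), and its call was lost without mouse 3 of the controls (0.053). In all 3 genes every 15 Gy library lay above every control library. Ndufa13 shares 8379 bases with Yjefn3 on the same strand and 375 with Tssk6 on the other, so its counts carry that uncertainty.

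Of complex II, none of the 4 subunits was called. Sdhd, a membrane anchor, had the lowest log2 fold change after Ndufa4l2, -1.45 ± 0.71 (SE; adjusted p 0.15), with 9.04, 5.45 and 1.32 CPM after 15 Gy and 1.48, 10.8 and 31.4 CPM in controls, groups that overlapped. In complex III, 2 of 8 were called, both lower. Uqcrh, the hinge protein of complex III, had 222, 202 and 234 CPM, against 359, 307 and 315 CPM (-0.58 ± 0.13; adjusted p 0.0034). Uqcrb, the ubiquinone-binding subunit, had 136, 120 and 102 CPM, against 152, 162 and 149 CPM (-0.38 ± 0.13; 0.043), a call that stood in only 1 of the 12 fits with a library left out.

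In complex IV, 3 of the 13 nuclear genes tested were called, all lower: Ndufa4l2, Cox8a and Cox7c. Cox8a, the small ubiquitous subunit VIII, had 100, 99.5 and 80.5 CPM after 15 Gy, against 130, 131 and 162 CPM in controls (-0.61 ± 0.14, SE; adjusted p 0.0039). Cox7c had 117, 101 and 48.8 CPM, against 108, 183 and 196 CPM, and its groups overlapped (-0.87 ± 0.28; 0.030). The Cox7c call was lost without mouse 3 of 15 Gy (0.116) and without mouse 2 or 3 of the controls. Ndufa4, the common relative of Ndufa4l2, had 68, 35.1 and 36 CPM, against 61.5, 67.4 and 83.2 CPM, and missed the threshold (-0.60 ± 0.22; 0.0521).

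In ATP synthase, 2 of the 14 subunits tested were called, both lower. Atp5g3, one of the genes for the membrane ring subunit c, had 481, 381 and 277 CPM after 15 Gy, against 615, 608 and 709 CPM in controls (-0.77 ± 0.17, SE; adjusted p 0.0030). Atp5c1, the gamma subunit of the rotating stalk, had 58.6, 50.1 and 57.7 CPM, against 77.3, 69.1 and 74.6 CPM (-0.41 ± 0.13; 0.027), lost without mouse 1 or 3 of the controls or mouse 2 of 15 Gy. In both genes all 15 Gy libraries lay below all controls. After 7 Gy, Atp5a1, the alpha subunit, was called lower with 451, 356 and 415 CPM, against 536, 534 and 497 CPM (-0.35 ± 0.11; 0.0465). That call was lost with mouse as a block (0.0669) and in 8 of the 12 fits with a library left out. Uqcrb overlaps Gm10767 by 465 bases and Atp5a1 overlaps Haus1 by 158, both on the opposite strand. On the same strand, Atp5c1 overlaps the snoRNA gene Gm23608 by 128 bases and Cox7c overlaps Gm22574 by 60. The part of these overlaps in the counts was not tested.

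**Figure D3:**
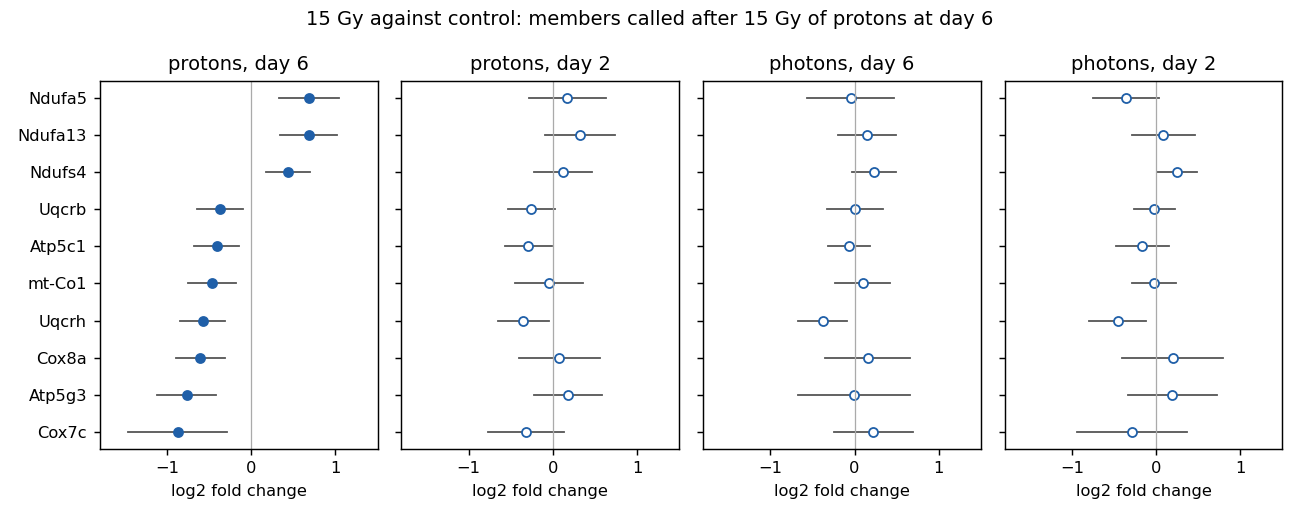
Log2 fold change, 15 Gy over control (x axis), with 95% interval (lines) of the genes called after 15 Gy protons at day 6, Ndufa4l2 left out for its size, in panels for each type and day; filled points are called. In protons at day 6 the points run from -0.87 (Cox7c) to 0.69 (Ndufa5), and none of these 10 genes is called in the other 3 panels.

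Of the 11 genes called, Ndufa4l2, Atp5g3, Uqcrh, Cox8a, Ndufa13 and Ndufa5 stood with any 1 of the 12 libraries left out. Without mouse 1 of 15 Gy, 23 genes were called, 7 nuclear genes higher, 15 lower and mt-Nd4 higher, against 28.4% of all genes. Without mouse 2 of 15 Gy there were 9 (all genes 21.1%), without mouse 3 of 15 Gy 10 (18.6%), and without mouse 3 of the controls 7 (16%). With only the 2 groups in the fit 6 were called, the same 6 that stood with any library left out, 2 higher and 4 lower. Of all 10177 genes tested in that fit, 845 were called higher and 876 lower. Ndufs4 (adjusted p 0.0526), Cox7c, mt-Co1, Atp5c1 and Uqcrb were not called there. The direction split depended on the scaling. Library size alone in place of TMM put the median of all genes at 0.136, where TMM put it at -0.02. It called 9 genes of the chain higher and 4 lower, where the TMM fit called 3 higher and 8 lower. Of all 10810 genes tested, it called 1939 higher and 927 lower. Atp5g3, Cox8a and Uqcrh were still called lower and Ndufa13, Ndufa5 and Ndufs4 higher under that scaling, whereas Atp5c1, Cox7c, Uqcrb and mt-Co1 were not called. DESeq2 did not call Cox7c (adjusted p 0.0821) or Uqcrb (0.0522).

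Single libraries of other groups were read for the same genes. Leaving Ndufa4l2 aside, a library deviated from the other 2 of its group in the direction of the 15 Gy proton difference for 0 to 8 of the 9 nuclear genes called, with a median of 4 over the 48 libraries. The number was 8 in 4 libraries: mouse 3 of the photon day 2 control and mouse 3 of 4 Gy photons at day 6, where deviations were large, and mouse 2 of 15 Gy photons and mouse 2 of 7 Gy protons at day 6, where the nuclear genes' median deviation was 0.0902 and 0.0908. Atp5g3, for example, had 833, 705 and 318 CPM in the 3 photon day 2 control libraries and 599, 677 and 150 CPM in the 3 libraries of 4 Gy photons at day 6. Uqcrh went the other way, with 685 CPM in mouse 3 of that control and 433 and 478 CPM in the other 2. Mouse 3 of 15 Gy protons at day 6 deviated from mice 1 and 2 in that direction for 7 of the 9 genes, and mouse 1 for 0. The part of such between-library deviations in the proton result was not tested.

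**Figure D4:**
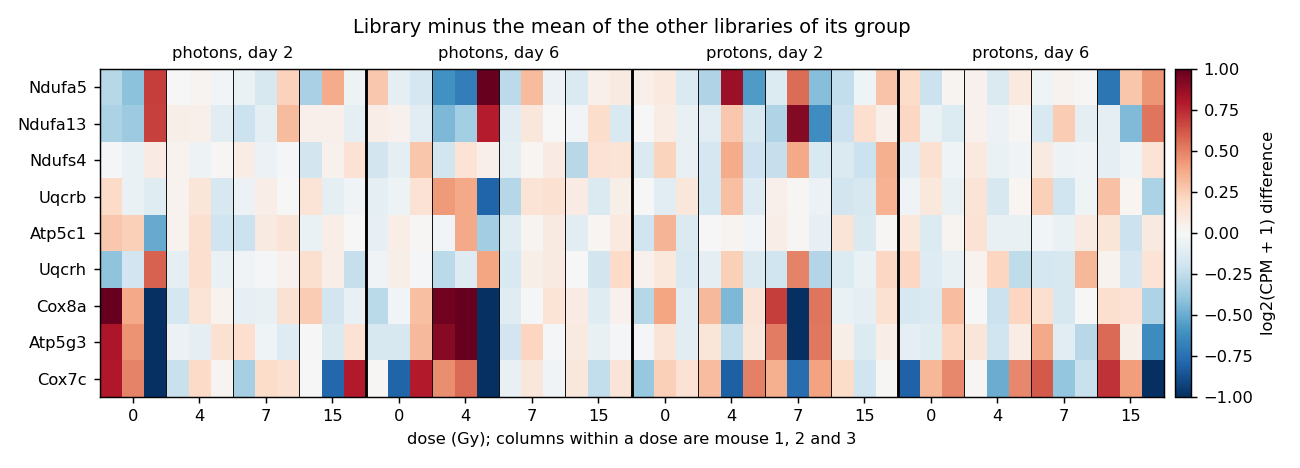
Difference of each library from the mean of the other 2 of its group, as log2(CPM + 1) (colour, from -1 in blue to 1 in red), for 9 nuclear genes called after 15 Gy protons at day 6 (rows) in all 48 libraries (columns, by type, day, dose in Gy and mouse). Cox8a, Atp5g3 and Cox7c are deep blue together in mouse 3 of the photon day 2 control and of 4 Gy photons at day 6, where Ndufa5 and Ndufa13 are red.

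After 7 Gy at proton day 6 the 5 genes called were Ndufa13 and Cox6b2, which rose (all genes higher 5.49%), and Ndufa4l2, Uqcrh and Atp5a1, which fell (lower 6.59%). Uqcrh had 201, 203 and 255 CPM, against 359, 307 and 315 CPM in controls (-0.57 ± 0.13, SE; adjusted p 0.0073), lost without mouse 2 of 7 Gy (0.0559). Ndufa13 had a log2 fold change of 0.59 ± 0.16 (0.021), lost without mouse 2 of 7 Gy or mouse 2 or 3 of the controls. Library size alone put the median of all genes at 0.184, where TMM put it at 0.00. It called 8 genes of the chain higher and 2 lower, where the TMM fit called 2 higher and 3 lower. Of all 10810 genes tested, it called 1393 higher and 380 lower. Uqcrh was lower under both scalings. Without mouse 1 or mouse 3 of 15 Gy in the fit, 8 genes were called (all genes 15.3% and 14.3%). There were 3 without mouse 1 or 3 of the controls (all genes 7.87% without mouse 3), 2 without mouse 2 of the controls and 1 without mouse 2 of 7 Gy. Where no share of all genes is given, the count describes the fit alone.

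The slope over dose at proton day 6 was called for 13 genes (all genes 24.3%), 4 higher (10.8%) and 9 lower (13.5%), mt-Co1 among those lower. It added Ndufa4, at -0.04 per Gy (adjusted p 0.0436), and Atp5k, the small subunit e of ATP synthase, at 0.03 per Gy (0.0452). With a library left out, Ndufa4 stood in 5 of the 12 fits and Atp5k in 3, and Atp5k was lost with mouse as a block (0.0592). The split again depended on the scaling. With library size alone, which put the median slope of all genes at 0.00767 per Gy, 8 genes were called higher. The 3 called lower were Atp5g3, Ndufa4l2 and Uqcrh, and mt-Co1 and Ndufa4 were not called. Of all 10810 genes tested under that scaling, 1667 slopes were called higher and 971 lower. Over all genes of the chain, 7 were called without mouse 3 of the controls or of 15 Gy (all genes 16.6% and 17.3%). There were 8 without mouse 2 of the controls and 24 without mouse 1 of 15 Gy (28.9% of all genes in the latter fit).

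Uqcrh was lower than its control in each of the 12 dose comparisons under TMM scaling, and in the fits of 12 libraries it was called only at proton day 6. At 15 Gy its libraries lay below all controls on both days and in both types. After photons it had 414, 396 and 344 CPM at day 2, against 433, 478 and 685 CPM (-0.46 ± 0.16, SE; adjusted p 0.115), and 310, 286 and 340 CPM at day 6, against 397, 415 and 401 CPM (-0.38 ± 0.14; 0.148). Without mouse 3 of 4 Gy photons, which stood apart, the day 6 difference was called (-0.38 ± 0.09; 0.0144). After protons at day 2 it had 254, 262 and 298 CPM, against 352, 362 and 322 CPM (-0.35 ± 0.14; 0.151), called with only those 2 groups in the fit (0.0234). A processed pseudogene, Gm12854, overlaps Uqcrh on the opposite strand.

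Promoter windows of Uqcrh and Cox8a, the complex III and complex IV subunits that fell after 15 Gy protons at day 6 and held that call with each library left out, are shown with the same marks. Uqcrh lies at chr4:116075021-116075320 and Cox8a at chr19:7217567-7217866, both on the minus strand of GRCm38.p6.
Uqcrh: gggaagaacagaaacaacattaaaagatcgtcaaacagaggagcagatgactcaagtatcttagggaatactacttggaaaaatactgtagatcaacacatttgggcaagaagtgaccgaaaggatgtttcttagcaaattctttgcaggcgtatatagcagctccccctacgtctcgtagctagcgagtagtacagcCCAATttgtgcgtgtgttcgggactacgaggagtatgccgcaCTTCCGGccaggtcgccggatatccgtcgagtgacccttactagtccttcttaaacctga
Cox8a: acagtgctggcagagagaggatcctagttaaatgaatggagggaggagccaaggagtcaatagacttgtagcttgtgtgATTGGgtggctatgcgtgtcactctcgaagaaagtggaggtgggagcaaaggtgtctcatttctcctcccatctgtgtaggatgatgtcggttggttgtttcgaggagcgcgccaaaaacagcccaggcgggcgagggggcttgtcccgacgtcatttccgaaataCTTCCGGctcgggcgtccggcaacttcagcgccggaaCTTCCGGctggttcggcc
The Uqcrh window held 1 CCAAT box and 1 ETS site and the Cox8a window 1 CCAAT box and 2 ETS sites.

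At proton day 2 the 4 genes called after 15 Gy were Ndufa4l2, Ndufa6, Uqcrq and mt-Nd4. Ndufa6, an accessory subunit of complex I, had 180, 156 and 198 CPM after 15 Gy, against 247, 315 and 242 CPM in controls (-0.59 ± 0.14, SE; adjusted p 0.0115). It was lost without mouse 2 of the controls (0.0865) or of 15 Gy (0.0906). Uqcrq, a small subunit of complex III, had 158, 158 and 180 CPM, against 128, 102 and 108 CPM (0.55 ± 0.14; 0.0204), lost without mouse 2 or 3 of either group. Both genes showed separate groups, Ndufa6 below and Uqcrq above its controls. With only the 2 groups in the fit 15 genes were called, 10 higher and 5 lower. Of all 10133 genes tested in that fit, 767 were called higher and 819 lower. The 15 were these 4, the mitochondrially encoded mt-Cytb and mt-Nd5 (higher) and mt-Nd6 (lower), and 8 more nuclear genes. Of those 8, Cox7a2l and Uqcrh were lower.

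Ndufa6 and Uqcrq moved in the same direction at photon day 2 without a call. Ndufa6 had 201, 195 and 198 CPM after 15 Gy photons, against 348, 351 and 259 CPM in controls (-0.68 ± 0.19, SE; adjusted p 0.0552). Its slope over dose was called, at -0.05 per Gy (0.0382), the only gene of the chain called in that trend (all genes 4.2%), and stood in 5 of the 12 fits with a library left out. Without mouse 3 of the controls, which stood apart, Ndufa6 was called at 15 Gy (-0.82 ± 0.18; 0.0113). Uqcrq had 169, 173 and 157 CPM, against 137, 106 and 116 CPM (0.48 ± 0.14; 0.0627). At day 6 the log2 fold changes after 15 Gy were -0.21 in photons (0.53) and -0.29 ± 0.11 in protons (0.0727) for Ndufa6, and 0.17 (0.64) and -0.12 (0.56) for Uqcrq.

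The remaining counts at day 2 varied with single libraries. The share of all genes called moved too, from 4.96% to 11.5% at 15 Gy photons without mouse 3 of the controls. Counts below without such a share beside them describe the fits and are no result about the chain. At photon day 2 and 15 Gy, 6 genes were called without mouse 3 of the controls (all genes 11.5%), and 6 also without mouse 1 of the controls, 3 without mouse 2 of 4 Gy and 2 without mouse 1 of 7 Gy. Without mouse 1 of the controls 2 were also called at 4 Gy and 6 at 7 Gy, and without mouse 2 of 7 Gy none at 7 Gy. The photon day 2 slope was called for 9 genes without mouse 3 of the controls (all genes 12.4%) and for 2 without mouse 1 of 4 Gy. None was called without mouse 1 or 2 of the controls, mouse 2 or 3 of 7 Gy or any mouse of 15 Gy. At proton day 2 and 15 Gy, 9 were called without mouse 2 of 7 Gy (all genes 11.2%) and 7 without mouse 2 of 4 Gy. There were 2 without mouse 3 of the controls and 1 without mouse 2 of the controls or of 15 Gy. The proton day 2 slope was called for 4 genes (all genes 6.33%), again Ndufa4l2, Ndufa6, Uqcrq and mt-Nd4. That count was 9 without mouse 2 of 7 Gy (all genes 8.98%). It was 2 without mouse 2 or 3 of the controls or mouse 1 of 15 Gy, and 1 without mouse 2 of 15 Gy. Atp5c1, called after 7 Gy protons at day 2 with 65.9, 64.2 and 61.3 CPM, against 84, 108 and 85.9 CPM (-0.54 ± 0.14, SE; adjusted p 0.0405), stood in 1 of 12 such fits. The slope at photon day 6 was called for 1 gene, Cox6b2 (all genes 3.36%). It was called for 2 without mouse 3 of 4 Gy (all genes 6.26%), and for none without any control mouse, mouse 1 of 4 Gy or mouse 1 or 2 of 15 Gy. At photon day 6, 15 Gy gave 3 genes without mouse 3 of 4 Gy (all genes 8.97%) and 2 without mouse 1 of the controls, and 4 Gy gave 1 without mouse 1 of the controls.

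The mitochondrially encoded genes were called in 2 of the 12 dose comparisons in the fits of 12 libraries, both after 15 Gy protons and in opposite directions. At day 2 mt-Nd4, a proton-pumping subunit of the complex I membrane arm, had 6917, 6709 and 5068 CPM after 15 Gy, against 4119, 4489 and 4029 CPM in controls (0.57 ± 0.16, SE; adjusted p 0.0389). The call was lost in 5 of the 12 fits with a library left out, each of the 3 controls among them. mt-Cytb had 3775, 3944 and 2410 CPM, against 2225, 2243 and 2323 CPM (0.58, adjusted p 0.108), and passed without mouse 2 of 7 Gy (0.0387) or mouse 3 of 15 Gy (0.0397). mt-Nd6, encoded on the other strand of the mitochondrial genome from most of these genes, had 30.8, 16.8 and 21.2 CPM, against 44.9, 33.2 and 34.4 CPM (-0.72 ± 0.27; 0.115).

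At day 6 mt-Co1 had 546, 821 and 726 CPM after 15 Gy protons, against 939, 1032 and 910.1 CPM in controls (-0.47 ± 0.14, SE; adjusted p 0.0192). It was lost without mouse 1 of 15 Gy (0.0571) or mouse 2 of the controls (0.0893). The 3 libraries of 15 Gy protons at day 6 differed among themselves: mt-Nd4 had 3107, 10710 and 7683 CPM, against 4342, 5537 and 5427 CPM in controls, and mt-Nd2 had 4883, 11910 and 10250 CPM, against 10910, 11340 and 10690 CPM. Without mouse 1, the lowest of the 3, mt-Nd4 was called higher (0.84 ± 0.16; 0.000811) and mt-Co1 was not called. After photons no mitochondrially encoded gene was called by edgeR or by DESeq2 at any dose, and at an unadjusted p under 0.05 there was at most 1 per comparison. At photon day 2 that gene was mt-Nd6 at every dose, with 12.6, 35 and 25.1 CPM in controls, 6.92, 13.1 and 11.6 after 4 Gy, 14.3, 11.5 and 10.3 after 7 Gy and 11.9, 15.8 and 12.3 after 15 Gy. Its log2 fold changes were -1.17 ± 0.33 (SE; adjusted p 0.203), -0.98 ± 0.33 (0.14) and -0.83 ± 0.33 (0.174), and the groups overlapped through mouse 1 of the controls. Without that library all 3 doses were called (-1.52, -1.32 and -1.17; 0.0184, 0.0136 and 0.0222). After 15 Gy photons at day 6 the 7 log2 fold changes ran from -0.21 to 0.26.

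The balance of the 2 genomes was taken as the log2 ratio of summed mitochondrially encoded counts to summed nuclear counts of the members. Most of the mitochondrially encoded counts came from mt-Nd2 (902841 over all libraries), mt-Nd4 (562497), mt-Nd1 (542857) and mt-Cytb (291120). The ratio therefore stands mainly for these genes on the mitochondrial side. With all libraries, irradiated and control libraries overlapped in all 12 comparisons. At proton day 2 the ratio was 1.51 ± 0.30 after 15 Gy and 1.20 ± 0.13 in controls (SD, n = 3 each), and the difference for 4, 7 and 15 Gy was -0.14, 0.12 and 0.31. At proton day 6 it was 1.42 ± 0.65 after 15 Gy and 1.44 ± 0.16 in controls, and the differences were -0.13, 0.02 and -0.01. Mouse 1 of 15 Gy was the lowest, at 0.705, and mouse 2 the highest, at 1.97. Without mouse 1 the difference was 0.35 and both other libraries lay above all controls (1.27 to 1.58), and without mouse 2 or 3 it was -0.28 or -0.10. At photon day 2 the differences were 0.05, -0.07 and 0.08, and at photon day 6 -0.22, 0.03 and 0.02. The 4 Gy difference at photon day 6 was 0.01 without mouse 3, the library with the lowest total count. Without mouse 3 of the photon day 2 control those of day 2 were 0.11, -0.0044 and 0.14, and without mouse 2 of 7 Gy protons at day 2 the difference was 0.20. With 3 libraries against 3, overlapping groups cannot reach an exact two-sided permutation p of 0.10, the smallest this design allows, and no p is given.

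**Figure D5:**
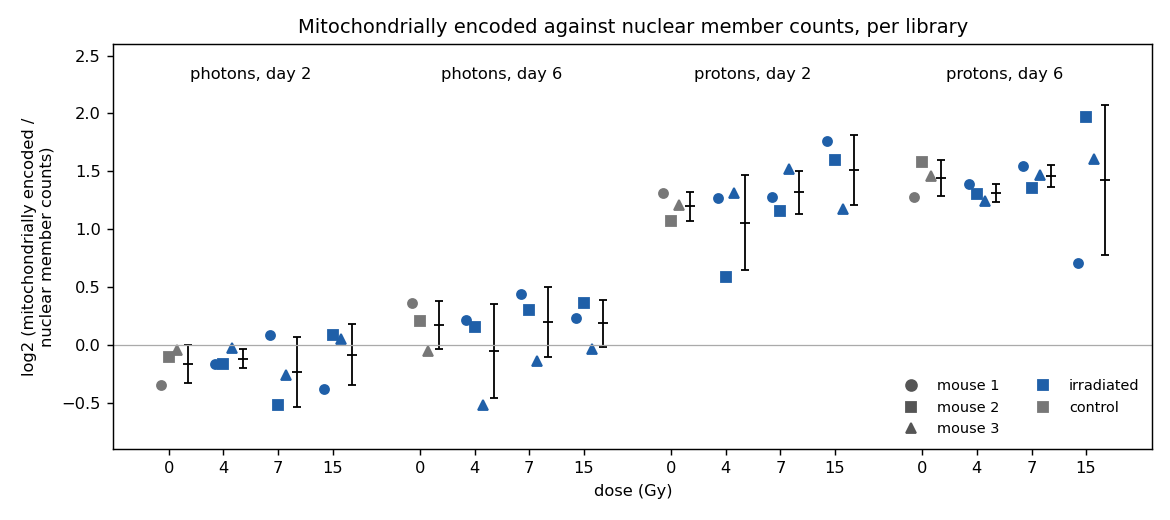
Log2 ratio of mitochondrially encoded to nuclear respiratory chain counts (y axis) in each library by dose in Gy, for both types and days; symbols are mice, grey is control, blue is irradiated, and bars give mean ± SD. Irradiated and control points overlap at every dose, and the 15 Gy proton libraries at day 6 spread from 0.705 to 1.97.

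In unirradiated organoids, day 6 was compared with day 2 to describe culture time. In the photon series 2 of 94 genes were called, both lower at day 6 (all genes 14.7%, 6.25% higher and 8.49% lower), and in the proton series 3, 1 higher and 2 lower (all genes 17.4%, 8.28% higher and 9.15% lower). Ndufa4l2 was lower at day 6 in both, by -1.82 ± 0.51 (log2, SE; adjusted p 0.0178) in photon controls and -1.85 ± 0.37 (0.000715) in proton controls. The proton call stood with any 1 of the 24 libraries left out. The photon call was lost without mouse 2 of the day 2 controls, without mouse 1 or 2 of the day 6 controls, and with only the 2 groups compared (0.109).

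Ndufaf4, a complex I assembly factor, rose with time in proton controls, with 67, 66.2 and 63.4 CPM at day 6, against 34.8, 33.7 and 34.4 CPM at day 2 (0.93 ± 0.14, SE; adjusted p 1.5e-05). That call stood with any 1 of the 24 libraries left out. In photon controls it had 74.6, 70.2 and 61.1 CPM at day 6, against 51.3, 50.9 and 70.7 CPM at day 2, groups that overlapped (0.26, adjusted p 0.29). mt-Nd6 was lower in proton controls at day 6, with 10.8, 17.7 and 25.9 CPM, against 44.9, 33.2 and 34.4 CPM (-1.06 ± 0.33; 0.0237), lost without mouse 1 of either group or mouse 2 of day 6. Ndufv3, a flavoprotein subunit of complex I, was lower in photon controls at day 6, with 52.5, 41.7 and 50.7 CPM, against 72.6, 66.7 and 73.8 CPM (-0.55 ± 0.16; 0.0229). That call was lost without mouse 1 of day 2 (0.0528) or mouse 2 of day 6 (0.114) and with library size alone (0.107), no filter on low counts (0.0546) or only the 2 groups compared (0.111). In the photon comparison 5 genes were called without mouse 3 of the day 2 controls, 4 without mouse 1 of those controls or mouse 3 of 4 Gy at day 6, and 1 without mouse 2 of the day 2 controls or mouse 1 or 2 of the day 6 controls. The shares of all genes in these fits are not given, so the counts are no result about the chain.

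Whether the effect of 15 Gy differed between days or radiation types was tested as an interaction. For protons, day 6 minus day 2, 1 of 94 genes was called, Ndufa4l2 (all genes 2.64%), at -4.09 ± 1.07 (log2, SE; adjusted p 0.0368). This call was lost in 9 of the 24 fits with a library left out, with adjusted p of 0.0508 to 0.0955, and 3 genes were called with mouse as a block. The count was 4 without mouse 1 of 15 Gy at day 6, 3 without mouse 2 of 4 or 7 Gy at day 2, and 2 without mouse 1 of the controls or of 7 Gy at day 2. For photons none of 94 was called by edgeR or DESeq2 (all genes 0.104%), with 1 nuclear gene at an unadjusted p under 0.05. Proton minus photon at day 2 gave no called gene by edgeR or DESeq2 (all genes 0%), with 1 nuclear and 1 mitochondrially encoded gene at an unadjusted p under 0.05. At day 6 edgeR called none of 94 (all genes 4.41%), with 11 nuclear and 1 mitochondrially encoded genes at an unadjusted p under 0.05, and DESeq2 called 1. The edgeR count was 1 with mouse as a block, 6 without mouse 1 of 15 Gy protons or mouse 3 of 4 Gy photons, 4 without mouse 1 of the proton controls and 3 without mouse 3 of the photon controls. For these interactions, shares of all genes with a library left out are not given. The counts from those fits are therefore no result about the chain.

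Other mitochondrial genes were read from 11 lists that serve or surround the respiratory chain. At proton day 6 after 15 Gy, 49 of 268 tested (18.3%) were called, 23 higher and 26 lower. Of all genes 24.2% were called, 11% higher and 13.2% lower. These shares apply beside each list, and no list was tested as a set. Of 74 mitochondrial ribosome genes 9 were higher and 2 lower; Mrpl13 was at 0.60 ± 0.15 (log2, SE; adjusted p 0.0059) and Mrpl48 at -0.69 ± 0.17 (0.0079). Of 27 genes of pyruvate oxidation and the citric acid cycle none was higher and 6 were lower, citrate synthase (Cs) among them. The lowest p belonged to Pdk1, the kinase that inhibits pyruvate dehydrogenase (-1.92 ± 0.18; 8.3e-07), Pdk3 (-0.73 ± 0.19; 0.00969) and Suclg2 of the citric acid cycle (-1.03 ± 0.28; 0.0122). Of 34 assembly genes of complexes II to V, 4 were higher and 4 lower, among them the complex III factors Uqcc1 (0.67 ± 0.17; 0.0068) and Uqcc2 (-0.60 ± 0.16; 0.0095).

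Of 31 import and quality control genes 3 were higher (all genes 11%) and 5 lower (13.2%). The lowest p belonged to Bnip3 (-2.03 ± 0.21, SE; adjusted p 3.2e-06) and Bnip3l (-0.77 ± 0.12; 0.000235), mitophagy receptors induced in hypoxia. Of 17 electron carriers and shuttles 3 were lower, Vdac1, Slc25a5, an adenine nucleotide carrier (-0.96 ± 0.26; 0.0111), and Etfa. Of 15 regulators Hif1a (-0.83 ± 0.17; 0.00146) and Myc (-1.28 ± 0.43; 0.0381) were lower and Ppard was higher. Of 15 stress response genes 2 were higher, Ddit3 (1.36 ± 0.23; 0.000309) and Gdf15, and 4 lower, Shmt2, Psat1, Mthfd2 and Asns. Coenzyme Q synthesis had 2 of 13 higher, RNA processing 1 of 19 higher, other complex I assembly 1 of 10 higher and mitochondrial DNA maintenance none of 13. In these lists Cs, Gdf15, Mthfd2 and Asns were named after their values were seen.

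Bnip3 and Pdk1, both known targets of HIF-1 like Ndufa4l2, were called lower after 15 Gy in both types and on both days. They were picked out after their values were seen, and whether these genes share a cause with Ndufa4l2 was not tested. All genes called, higher or lower, were 4.96% and 5.29% after photons and 8.31% and 24.2% after protons. Bnip3 was at -0.89 ± 0.23 and -1.18 ± 0.24 (log2, SE; adjusted p 0.0415 and 0.0075) after photons at days 2 and 6, and at -0.83 ± 0.15 and -2.03 ± 0.21 (0.0016 and 3.2e-06) after protons. Pdk1 was at -0.76 ± 0.20 and -0.87 ± 0.18 (0.0424 and 0.0099) after photons, and at -0.66 ± 0.14 and -1.92 ± 0.18 (0.0065 and 8.3e-07) after protons. In unirradiated organoids both were also lower at day 6 than at day 2, Bnip3 by -1.40 ± 0.25 (0.000417) in photon and -0.57 ± 0.19 (0.0357) in proton controls. These comparisons share their control samples with those of Ndufa4l2.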

How the data were processed

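Per the labels' protocols, QuantSeq 3' libraries used 100 ng of RNA each, at RIN above 9. The deposited files hold counts per gene that the authors did not normalize. Per the submitters' processing notes the build was GRCm39 and edgeR was used; no source used here names the aligner, annotation version or strand setting. The 5 summary lines of each file stayed out of library sizes and tests; reads outside genes were 7.88 to 12.1% of a library. Deposited CPM tables (4) were not used. Symbols came from the reference table for 47224 of 47643 identifiers.

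Groups were taken from the titles. The count test was that of edgeR 4.0.16 (R 4.3.3; TMM scaling, filterByExpr, quasi-likelihood F test, Benjamini-Hochberg over all genes, threshold 0.05), with 12 libraries per fit of a type and day and 24 per interaction or culture-time fit, 22 comparisons in all. Each SE equals the absolute log2 fold change over the root of its F statistic. The slope over dose is per Gy. DESeq2 1.42.0, other scalings and filters, a replicate block and each library left out were alternatives. The test was tried on simulated data. Members and lists were chosen with earlier results of these data known. The rule for named genes took the mitochondrially encoded members, 1 core subunit per complex, the isoforms, up to 10 called genes per comparison and the extremes.

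Same-numbered libraries within a type come from the same mouse per the labels; deviations of such pairs from their group mean correlated, on average over 10536 genes, at 0.0762 and 0.075 for photons and 0.0731 and -0.0304 for protons at days 2 and 6. The main tests did not use this pairing. Every pair within a group differed by more than sampling noise, so all 48 libraries entered. The labels do not say that cultures were separate beyond the mouse. Counting intervals (95%) cover counting error only, since reads are not independent molecules.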

Additional observations from a re-analysis of the deposited data

Results flagged for a closer look

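Ndufa4l2 is listed because its response to 15 Gy protons differed between the days by a test of the difference itself. The interaction was -4.09 ± 1.07 (log2, SE; adjusted p 0.0368 by edgeR's quasi-likelihood test over all genes), from a 15 Gy effect of -5.76 at day 6 and -1.63 at day 2. In both effects all 3 irradiated libraries lay below all 3 controls. At day 6 the irradiated libraries held 1 count in all, so the size of the difference depends on the prior count, and the call was lost in 9 of the 24 fits with a library left out.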

How the results depend on the processing

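Of 51 calls, those lost were 2 with DESeq2, 14 with library size alone, none with mt- genes left out of the totals, 8 with no filter on low counts, 2 with the replicate block (Atp5a1 at 7 Gy protons and the Atp5k slope, both day 6) and 11 of 32 with only the groups compared; 19 stood with every library left out in turn. The cause was not tested. Depth and 3 libraries a group limit the smaller differences, and the numbers below count called genes. Calls over all genes moved with the setting too. For 7 Gy photons at day 2 they were 298 of 11039 in the main fit. With no filter they were 453 higher and 420 lower of 20752. The numbers below are therefore no result about the chain, and not every change is listed.

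With no filter there were 4, 8 and 4 for photons at day 2 (4, 7, 15 Gy), 1, 2 and 2 at day 6 with 2 for the slope, 8 for 15 Gy protons at day 2, 5 for photon culture time, 3 for protons day 6 minus day 2 and 6 for proton minus photon at day 6. For 15 Gy protons at day 6 no filter gave 6 higher and 10 lower, with 1441 and 1378 of all 21543 genes. For the proton day 6 slope it gave 4 higher and 6 lower, with 1268 and 1283 of all genes. With DESeq2 there were 2 and 3 at photon day 2 (7 and 15 Gy), 3 for both photon slopes, 3 for protons day 6 minus day 2 and 1 for proton minus photon at day 6. With library size alone there were 0 for both photon slopes, 1 for photon culture time, 10 for 7 Gy protons at day 6 and 1 for proton minus photon at day 6, which was also 1 with mt- genes left out, with only the groups compared and with the replicate block. The replicate block gave 3 for protons day 6 minus day 2. With only the groups compared there were 0 at photon day 2 (7 and 15 Gy), for 7 Gy protons at day 2 and for photon culture time, 2 for 15 Gy photons at day 6 and for protons day 6 minus day 2, 5 for proton culture time, 15 for 15 Gy protons at day 2, and 8 and 6 for 7 and 15 Gy protons at day 6.

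With a library left out, the counts ran from 0 to 2, 0 to 6, 1 to 6 and 0 to 9 at photon day 2 (4, 7, 15 Gy and slope), 0 to 1, 0 to 1, 1 to 3 and 0 to 2 at photon day 6, 0 to 1, 1 to 9 and 1 to 9 at proton day 2 (7, 15 Gy and slope), 1 to 8, 7 to 23 and 7 to 24 at proton day 6, 1 to 5 for photon culture time, 0 to 4 for protons day 6 minus day 2 and 0 to 6 for proton minus photon at day 6.

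The difference in the log2 ratio of mitochondrially encoded to nuclear counts was -0.14 for 4 Gy photons and -0.046 for 7 Gy protons at day 2 as a mean of log2(CPM + 1), and 0.16 for 7 Gy protons at day 6 without mt-Nd2 and Atp5g3. Uncalled values near 0 changed sign. Cox6b2 in photon culture time became 0.040 with library size alone, 0.0029 with the replicate block and 0.11 and 0.07 in 2 fits with a library left out, which ran from -0.16 to 0.11. Its day 6 minus day 2 effect became -0.09, -0.12, -0.05 and -0.02 with a library left out in photons (range -0.12 to 0.19), and in protons 0.038 with library size alone and 0.05, 0.05, 0.04, 0.25 and 0.12 with a library left out (range -0.32 to 0.25). Ndufa4l2 after 4 Gy photons at day 2 became -0.066 with the replicate block and -0.01, -0.07 and -0.46 with a library left out (range -0.46 to 0.20).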

Other observations

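In proton-series controls, 8 of 15 mitochondrial stress response genes were called higher at day 6 than at day 2 and none lower, beside 8.28% of all genes called higher. The list was chosen with earlier results of these data known, so its count is a description and no independent evidence. Mthfd2, a mitochondrial folate enzyme, was at 1.46 ± 0.15 (log2, SE; adjusted p 8e-08), Gdf15, a secreted stress factor, at 2.15 ± 0.23 (1.3e-07) and Trib3, a pseudokinase of the integrated stress response, at 2.07 ± 0.25 (1.2e-06). In photon-series controls 2 of 15 were higher, Gdf15 (2.22 ± 0.29; 1.4e-05) and Chac1, and 1, Psat1, was lower, beside 6.25% of all genes higher and 8.49% lower. Ppargc1a, the coactivator that drives mitochondrial biogenesis, was higher at day 6 in both, at 2.35 ± 0.26 (1.9e-06) in photon and 2.10 ± 0.70 (0.0356) in proton controls. The 2 series were not compared with each other in these values.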
